A study of Mus musculus with 12 samples.

Results

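Transcripts of 9 genes of cytokine signalling were followed in follicular helper T (Tfh) cells that were wild type (WT) or homozygous for a knock-in (KI) allele of Pdcd1, the gene encoding the receptor PD-1. The genes were the Janus kinases Jak1, Jak3 and Tyk2, the transcription factors Stat3, Stat5a and Stat5b, and the inhibitors Socs1, Socs3 and Cish. They were taken by symbol, 9 of 25793 genes in the count table, and all 9 were also listed in the FPKM table. The 12 libraries comprised 6 labelled Pdcd1+/+ and 6 labelled Pdcd1KI/KI. In both groups the cells were GFP-transduced CD4+ OT-II T cells, whose receptor recognises an ovalbumin peptide, on a C57BL/6 background. They had been placed in B6 mice alongside dsRed-marked MD4 B cells, which bind hen egg lysozyme (HEL), and the mice received HEL-OVA with LPS and alum. Cells high in CXCR5 were sorted from lymph nodes on day 5, in pools of 100 to 200 cells. The labels do not say what the KI allele changes, how many animals were used or whether libraries came from different animals, and the recipients kept their own lymphocytes. Libraries are named by genotype and by the 2 numbers of their titles, for example WT 1-3, and the labels give no meaning for those numbers. The first number runs over 1 and 2 with 3 libraries of each genotype at each, and the p-values measure only the spread between these libraries, which may be technical.

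Cytokine receptors of this kind have no kinase of their own and hold JAK proteins on their cytoplasmic tails. Ligand binding lets the JAKs phosphorylate the receptor and the STATs, which pair, enter the nucleus and bind DNA. SOCS proteins and CIS, the product of Cish, are induced by STATs and feed back on receptor and kinase. In helper T cells STAT3, downstream of IL-6 and IL-21, favours the Tfh state, while STAT5, downstream of IL-2, opposes it. Much of this control acts on protein phosphorylation, which RNA levels do not show.

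Total gene counts ran from 717506 to 1801504 per library, with a median of 1411040. The 8 T cell markers checked were all above the filter on low counts, at a summed 5339 to 7213 CPM (counts scaled to the library total adjusted by TMM). The 8 Tfh markers summed to 1585 to 2337 CPM, most of it from Cxcr5 (the sort marker), Icos and Sh2d1a. Bcl6 and Il21 averaged only 10.7 and 10.3 counts per library, and Il21 was at 0 in at least 1. Of these 8 markers 5 were called between first numbers, against 16.0% of all genes tested. Their log2 differences (2 minus 1) were -0.72 for Cxcr5, -1.56 for Pdcd1, -1.30 for Tox2, 0.76 for Icos and 0.74 for Sh2d1a. For Pdcd1 itself the mean and SD of 6 libraries were 292 ± 151 CPM (WT) and 70.0 ± 47.2 CPM (KI), with a log2 fold change of -2.05 (SE 0.42; edgeR adjusted p 0.231). The genotypes did not overlap in Pdcd1, and with the first number as a term in the fit the value was -2.24 (SE 0.22) and passed (edgeR adjusted p 7.6e-06). The labels do not say which portion of the gene the allele alters. Of 8 B cell markers 5 were above the filter, with sums of 144 to 322 CPM in WT and 114 to 231 CPM in KI, and Pax5 was at 0 throughout. Cd22 had the highest level of the list (99.1 and 147 CPM in WT and KI), while Ms4a1 (30.8 and 7.46 CPM in WT and KI), Cd79b (46.7 and 18.3 CPM) and Cd79a (25.9 and 10.6 CPM) had log2 fold changes of -2.04, -1.36 and -1.32. These 3 of 5 had an unadjusted p under 0.05, against 5.40% of all genes tested, and none passed (edgeR adjusted p 0.487 to 0.914). The part of this in the comparison of genotypes was not tested. None of 7 myeloid markers was above the filter, so none was tested, and Itgax and Cd14 were at 0. The 7 markers summed to 4.50 to 245 CPM in WT (median 10.99) and 1.24 to 49.9 CPM in KI (median 22.6). The highest sum was in a WT library of first number 1. Lyz2 and Csf1r had at most 88 and 62 counts in a library. Myeloid RNA was thus not absent from every library, and its part in the comparisons was not tested. Summed levels of 10 cytotoxic cell markers were 86.1 to 301 CPM where the first number was 1 and 286 to 946 CPM where it was 2. Of the 5 tested 4 were called higher at 2, against 8.47% of all genes. By genotype the sums were 86.1 to 946 CPM in WT (median 475) and 88.3 to 513 CPM in KI (median 215). All 5 tested were lower in KI (median log2 fold change -1.26). An unadjusted p under 0.05 was found for 1 of 5, against 5.40% of all genes tested, and none passed in the edgeR test. The number of genes detected (10331 to 10701 against 10782 to 11115) and the share of reads outside annotated genes (4.92% to 7.72% against 7.79% to 9.36%) also separated the first numbers.

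Per transcript length, Jak1 was the most abundant of the 9 genes. Jak1 encodes the kinase shared by the receptors for IL-2, IL-6, IL-21 and interferons. It was at 96.9 ± 34.2 FPKM (SD, n = 12). Stat3, the main STAT of IL-6 and IL-21, followed at 37.4 ± 8.07 FPKM, and Stat5b, one of the STATs of IL-2, at 23.9 ± 5.72 FPKM. Jak1 exceeded Stat3, and Stat3 exceeded Stat5b, in all 12 libraries. Below these the order was less clear. Jak3, which pairs with the common gamma chain of the IL-2 receptor family, averaged 18.1 ± 8.67 FPKM and was under Stat5b in 9 of 12 libraries. Stat5a stood at 10.4 ± 3.63 FPKM, Socs3 at 8.83 ± 7.14 FPKM and Tyk2 at 7.44 ± 3.54 FPKM. Over all 12 libraries Stat5a was above Socs3 in 8 and Socs3 above Tyk2 in 7, but the place of Socs3 depended on the first number. At first number 2 Stat5a (7.27 to 13.3 FPKM) was above Socs3 (2.08 to 4.29 FPKM) in every library, and at number 1 Socs3 had the higher mean, 14.9 against 10.3 FPKM. The lowest were Socs1 at 3.19 ± 2.47 FPKM and Cish at 1.12 ± 1.26 FPKM (SD, n = 12 for each). Among the 4 JAK genes including Jak2, Jak1 held a median 69.1% of the summed FPKM (range 54.7% to 80.7%). This share also depended on the first number, at 54.7% to 68.7% (median 61.0%) for number 1 and 69.6% to 80.7% (median 77.2%) for number 2.

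**Figure D1:**
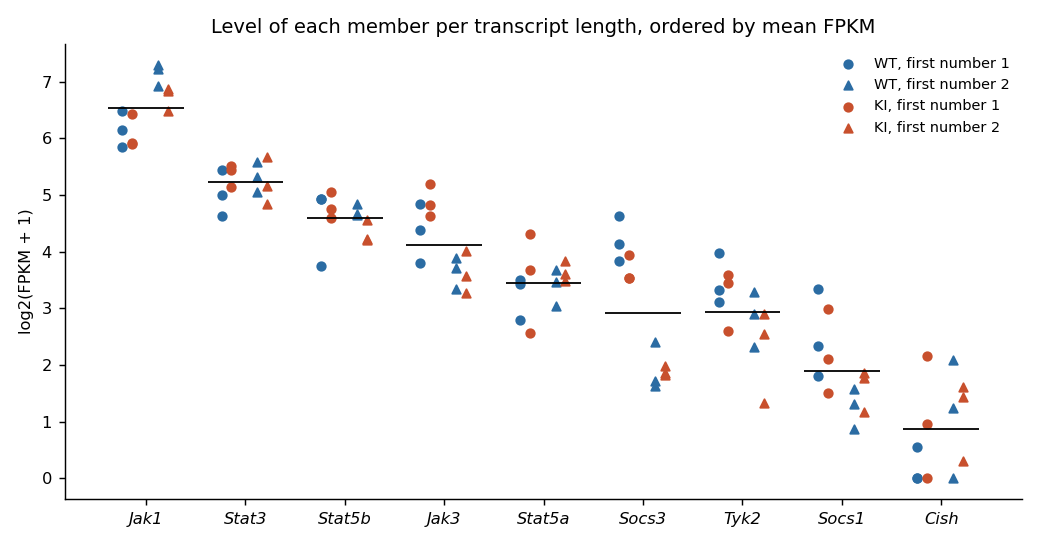
Level of each gene as log2(FPKM + 1) in each of 12 libraries, with genes ordered from left to right by mean FPKM. Colour gives the genotype, circles and triangles first number 1 and 2, and the black line the mean of the plotted values. Jak1 lies highest and Cish lowest, and the circles and triangles of Socs3 do not overlap.

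The design's comparison, KI against WT, called no gene of this family. Of the 9 genes 7 passed the filter and entered the edgeR quasi-likelihood test over 7542 genes, and 0 of 7 had a Benjamini-Hochberg adjusted p under 0.05, where 0.0265% of all genes did (2 genes, Rnf43 and 1110028F11Rik, named after their values were seen). None had an unadjusted p under 0.05 in this fit, against 5.40% of all genes. DESeq2 and limma-voom also called 0 of 7. The median log2 fold change over the 7 genes was -0.10, beside 0.02 over all genes tested. In bulk RNA, fewer expressing cells and less RNA per cell cannot be told apart.

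Jak1 (chr4:100824972-100937887 in NCBIM37, the build also called mm9, minus strand) measured 610, 561 and 555 CPM in WT 1-1, 1-2 and 1-3, and 833, 1075 and 1021 CPM in WT 2-1, 2-2 and 2-3. The KI libraries gave 534, 444 and 425 CPM at first number 1 and 793, 743 and 814 CPM at first number 2. KI lay below WT at each first number with no overlap, a pattern that 1.14% of tested genes showed in 1 direction or the other. Across all libraries the groups overlapped, and the log2 fold change was -0.31 (SE 0.23; edgeR adjusted p 0.938; 95% interval -0.79 to 0.16). With the first number as a term in the fit it was -0.31 (SE 0.13; 95% interval -0.59 to -0.03), with an unadjusted p of 0.0305 and an edgeR adjusted p of 0.519.

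Jak3 (chr8:74200195-74214474, plus strand) was at 73.3, 121 and 85.9 CPM in WT and at 78.8, 119 and 136 CPM in KI with first number 1. With first number 2 it was at 55.8, 37.7 and 45.3 CPM in WT and 58.6, 50.7 and 38.8 CPM in KI. WT and KI overlapped at both first numbers, and the log2 fold change was 0.21 (SE 0.34; edgeR adjusted p 0.963). Its annotated exons share 404 bases with Insl3 on the same strand and 288 bases with Gm9933 on the other. Reads from the bases shared with Insl3 cannot be assigned to Jak3 alone. For those shared with Gm9933 this depends on the use of strand in counting, which is not given in the sources used here.

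Tyk2 encodes the JAK of the interferon alpha, IL-12 and IL-10 receptors (chr9:20908521-20931790, minus strand). It was at 56.5, 114 and 68.0 CPM in WT and 62.9, 68.8 and 35.0 CPM in KI at first number 1, and at 42.04, 55.1 and 24.9 CPM in WT and 12.5, 38.5 and 33.2 CPM in KI at first number 2. The genotypes overlapped at both, with a log2 fold change of -0.50 (SE 0.39; edgeR adjusted p 0.938). The 95% interval, -1.31 to 0.31, was wide.

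The 3 STAT genes stand side by side on chromosome 11, with Stat5b at chr11:100642045-100712038 (minus strand), Stat5a at chr11:100720665-100746483 (plus strand) and Stat3 at chr11:100746412-100800854 (minus strand). Stat5a and Stat3 converge and their last exons overlap by 72 bases, and 8626 bases lie between Stat5b and Stat5a. Stat3 varied little. At first number 1 it was at 249.1, 213 and 202 CPM in WT and 228, 222 and 276 CPM in KI, and at first number 2 at 228, 188 and 272 CPM in WT and 212, 272 and 212 CPM in KI. All 4 sets of 3 libraries overlapped. Its log2 fold change was 0.07 (SE 0.18; edgeR adjusted p 0.972), with a 95% interval of -0.30 to 0.44.

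Stat5a and Stat5b encode near-identical proteins. Their GENCODE vM1 coding sequences of 2382 and 2361 bases were identical at 90.7% of 2346 aligned positions. The longest run without a difference, 324 bases at positions 571 to 894 of both coding sequences (counted from the start codon), is shown by its first 120 bases because a read that falls inside it fits both genes equally well, and such reads were set apart in the deposited counts.
Stat5a and Stat5b, positions 571 to 690: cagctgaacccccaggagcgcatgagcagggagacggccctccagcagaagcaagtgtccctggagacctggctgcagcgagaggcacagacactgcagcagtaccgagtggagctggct

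The ungapped 60-base stretch with the most differences, at positions 85 to 144 of each coding sequence, shows where reads do tell the genes apart. It holds 19 differing bases, printed in capitals.
Stat5a: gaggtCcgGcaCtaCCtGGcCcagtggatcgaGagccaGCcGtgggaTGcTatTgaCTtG
Stat5b: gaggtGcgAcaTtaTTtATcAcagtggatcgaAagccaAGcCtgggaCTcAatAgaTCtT
Of all 75-base windows of the Stat5a transcript, 10.1% also occurred in Stat5b, and 15.8% of 50-base windows did. The length of the reads is not given in the sources used here, so the share of Stat5a reads lost to this is uncertain.

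Stat5a was at 55.1, 53.1 and 43.0 CPM in WT and 50.2, 25.4 and 94.8 CPM in KI with first number 1, and at 55.2, 50.6 and 36.2 CPM in WT and 62.3, 57.5 and 56.8 CPM in KI with first number 2. Stat5b was at 190, 218 and 113 CPM in WT and 136, 231 and 175 CPM in KI with first number 1. With first number 2 Stat5b was at 179, 156 and 156 CPM in WT and 150, 135 and 119 CPM in KI. At first number 2 every KI library thus had more Stat5a and less Stat5b than every WT library, while at first number 1 both genes overlapped. A gap of this kind at first number 2 was present for 11.4% of tested genes. Neither gene passed the test over all libraries, with log2 fold changes of 0.24 (SE 0.30; edgeR adjusted p 0.954) for Stat5a and -0.10 (SE 0.22; edgeR adjusted p 0.969) for Stat5b.

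The share of Stat5a in the summed Stat5a and Stat5b counts was 18.8% to 27.6% in WT (median 23.0%) and 9.93% to 35.1% in KI (median 29.6%). KI 1-2 had the lowest share of all 12 libraries, with a 95% Wilson interval of 7.40% to 13.2%, and KI 1-3 the highest, with an interval of 30.6% to 40.0%. The intervals cover counting error only, since amplified reads are not independent molecules. KI 1-2 and KI 1-3 carry the same genotype and first number, and their intervals did not overlap. They were picked as the lowest and highest of 12, and a spread beyond the sampling of molecules was not tested. On FPKM the median share over all libraries was 31.1%, against 25.7% on counts. Counts are not scaled by transcript length, and the longest GENCODE vM1 transcripts held 3888 bases for Stat5a and 5213 for Stat5b.

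**Figure D2:**
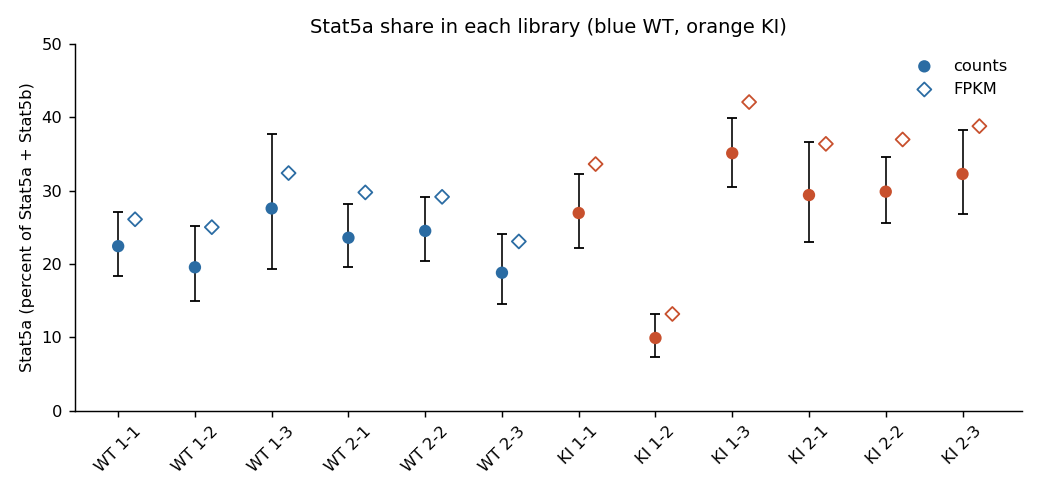
Share of Stat5a in Stat5a plus Stat5b, in percent, for each of 12 libraries (blue WT, red KI). Filled circles give counts with 95% Wilson intervals and open diamonds give FPKM. KI 1-2 lies lowest at 9.93% and KI 1-3 highest at 35.1%.

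Socs3, Socs1 and Cish are the inducible inhibitors. Socs3 blocks signalling through gp130, the shared IL-6 receptor chain. It lies at chr11:117827393-117831361 (minus strand). At first number 1 it was at 84.4, 67.2 and 66.2 CPM in WT and 34.3, 55.8 and 39.2 CPM in KI. At first number 2 it was at 8.16, 7.31 and 15.1 CPM in WT and 15.0, 8.28 and 9.69 CPM in KI. KI was thus below WT without overlap at first number 1 and overlapped it at first number 2. A gap at first number 1, in either direction, was present for 15.6% of tested genes. The log2 fold change over all libraries was -0.59 (SE 0.61; edgeR adjusted p 0.948), with a 95% interval of -1.86 to 0.69. The value ran from -0.93 without KI 1-2 to -0.22 without WT 1-1, and was -0.02 with limma-voom. The interaction of genotype with first number was 0.84 on the log2 scale (edgeR adjusted p 0.868), so a difference between the first numbers in the KI effect was not shown. Over all 7 genes the interaction had edgeR adjusted p-values from 0.868 to 0.999. None had an unadjusted interaction p under 0.05, against 7.21% of all genes.

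Socs1, which inhibits the JAK kinases directly and restrains interferon gamma signalling, and Cish, which acts on IL-2 and T cell receptor signalling, were below the filter. Each had a two-sided exact permutation test on log2(CPM + 1). Socs1 (chr16:10783901-10785629, minus strand) had 20, 6 and 3 counts in WT and 4, 9 and 16 counts in KI at first number 1, and 2, 4 and 4 counts in WT and 2, 7 and 6 counts in KI at first number 2. The difference between KI and WT was -0.01 (exact permutation p 0.998). Cish (chr9:107198357-107205115, plus strand) had 0 counts in WT 1-1, WT 1-2, WT 2-1 and KI 1-1, where a count of 0 allows up to 1.88 to 3.54 CPM. It had 17 counts in both WT 2-2 and KI 1-2, at 9.56 and 10.5 CPM, and 1 to 9 counts in the other 6 libraries. Each genotype thus held at least 1 library with no Cish count, more of them WT, and a library near the top of the Cish range. The KI minus WT difference was 0.64 (exact permutation p 0.433). Cish exons share 261 bases with Gm17040 and 479 bases with Gm17041, both on the opposite strand, and the use of strand in counting is not given in the sources used here.

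**Figure D3:**
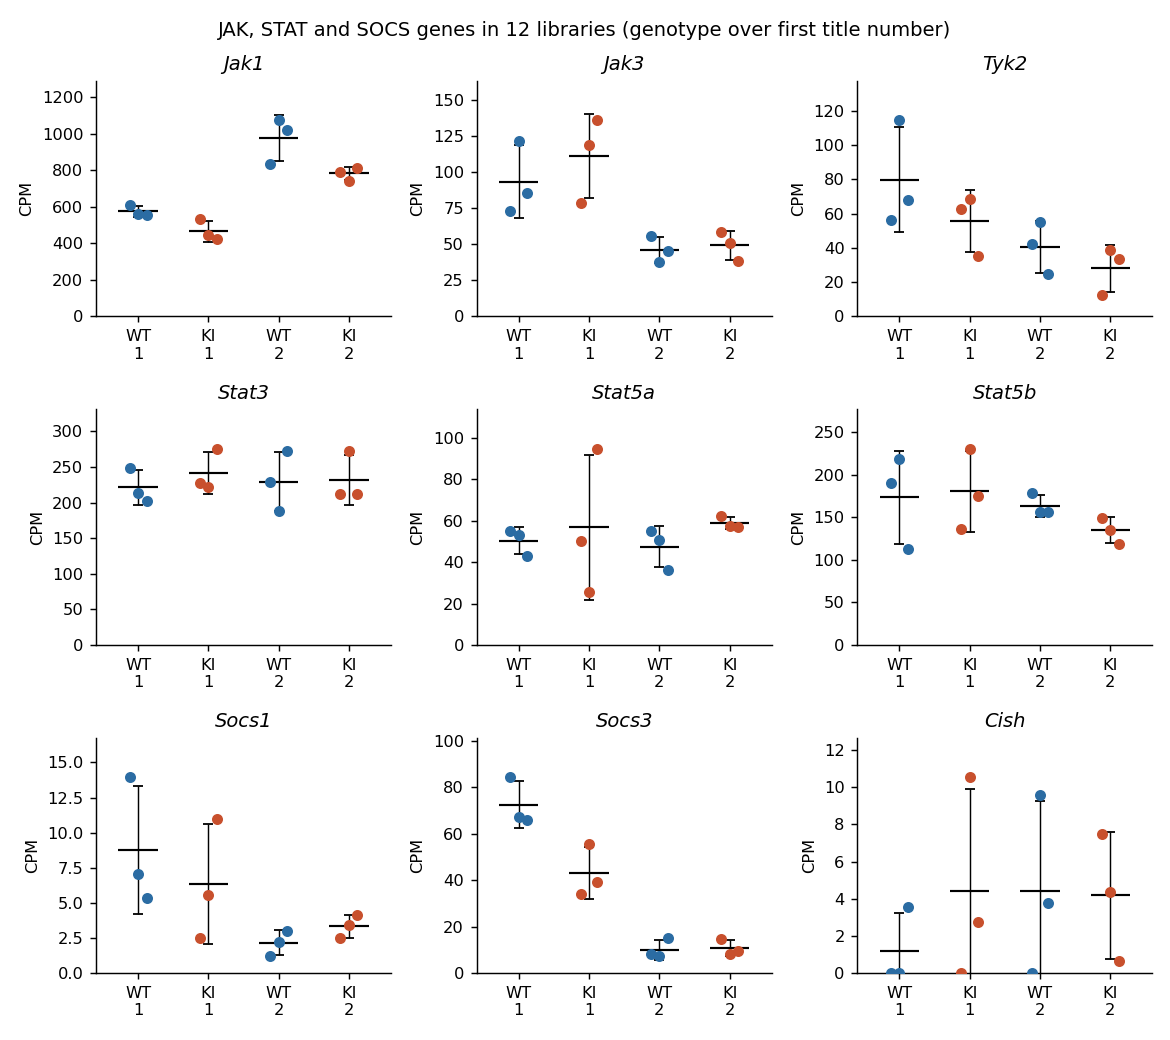
CPM of each of the 9 genes in each library, grouped by genotype (blue WT, red KI) over first number 1 and 2. The black line is the mean and the bar 1 SD of 3 libraries, cut at 0. Jak1 is higher, and Jak3 and Socs3 are lower, in every library of first number 2, while Stat3 is level.

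STAT dimers bind the palindromic core TTCNNNGAA, which reads the same on both strands. It was searched in the RefSeq promoter windows of all 9 genes (300 bases each, 250 before and 50 after an annotated start; 11 windows in all, sequences from GRCm38.p6). It was present in the windows of Cish and Socs3 and in 8.3% of all 32851 windows. The Cish window held 2 matches in tandem, starting at bases 1 and 12 counted from the annotated start, and the Socs3 window held 1, starting 154 bases before the start. The window of Socs1, also an inducible inhibitor, held no match. Those of Cish and Socs3 are shown because they were the only matches, with the fixed bases in capitals and positions from an exact match to NCBIM37.
Cish, chr9:107198990-107199009, plus strand: TTCctgGAAagTTCttgGAA
Socs3, chr11:117830816-117830844, minus strand: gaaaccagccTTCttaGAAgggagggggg
These are matches of letters and were not measured as binding sites in this series.

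The first title number, by contrast, separated several members. In the edgeR fit with genotype as covariate, 4 of 7 genes differed between first numbers 2 and 1, against 16.0% of all genes tested. Jak1 was higher at number 2, as 8.47% of genes were, and Jak3, Tyk2 and Socs3 were lower, as 7.54% of genes were. The median over the 7 genes was -0.26 on the log2 scale, beside 0.01 over all genes. For Jak1, Jak3 and Socs3 all 6 libraries of one number lay apart from all 6 of the other, which held for 6.48% of tested genes. Between KI and WT the same was true of none of the 7 and of 0.371% of all genes.

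Socs3 fell most, from 57.9 ± 18.8 CPM at number 1 to 10.6 ± 3.53 CPM at number 2 (mean ± SD of 6 libraries), or -2.43 on the log2 scale (SE 0.36; edgeR adjusted p 0.000119). Jak1 rose from 522 ± 72.1 to 880 ± 135 CPM, by 0.75 (SE 0.13; edgeR adjusted p 0.000747). Jak3 fell from 102 ± 26.3 to 47.8 ± 8.71 CPM, a log2 fold change of -1.10 (SE 0.24; edgeR adjusted p 0.0031). With Jak1 and Jak3 moving in opposite directions, the FPKM of Jak1 was 1.67 to 4.48 times that of Jak3 at number 1 and 7.67 to 17.1 times at number 2. Tyk2 fell from 67.6 ± 26.1 to 34.4 ± 14.7 CPM, with a log2 fold change of -0.95 (SE 0.31; edgeR adjusted p 0.0413), but its libraries overlapped and it lost the call on leaving out any of 7 libraries (WT 1-2, 2-1 and 2-3, and KI 1-1, 1-2, 2-1 and 2-3).

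The 3 STAT genes did not pass, with log2 differences of -0.01 (SE 0.16) for Stat3, -0.02 (SE 0.29) for Stat5a and -0.26 (SE 0.19) for Stat5b and edgeR adjusted p-values of 0.375 to 0.985. Stat3 was thus near level while Socs3 fell, and the FPKM of Stat3 was 1.77 to 4.18 times that of Socs3 at number 1 and 9.34 to 19.8 times at number 2. Socs1 was at 7.59 ± 4.17 CPM at number 1 and 2.76 ± 1.00 CPM at number 2 (SD, n = 6 each), a difference of -1.09 in log2(CPM + 1) (exact permutation p 0.0108, and 0.015 within genotypes). Its counts at number 2 were 2 to 7, close to the floor of 3 counts. Cish did not pass, at 2.81 ± 4.10 and 4.32 ± 3.73 CPM (exact permutation p 0.368).

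**Figure D4:**
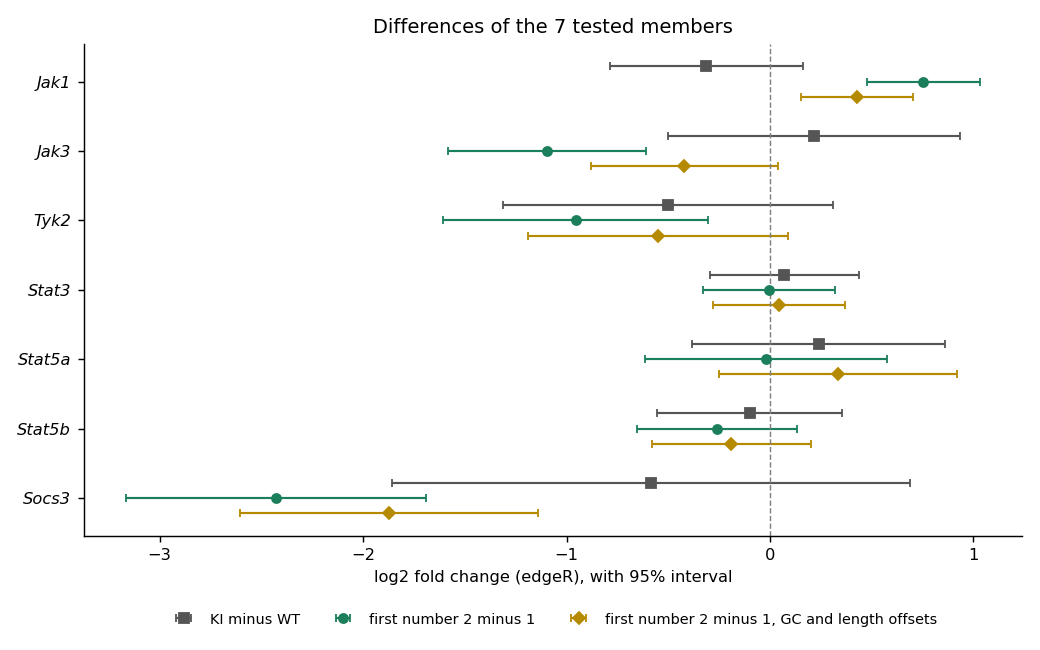
Log2 fold changes of the 7 tested genes with 95% intervals from edgeR. Squares are KI minus WT, circles first number 2 minus 1, and diamonds the latter with offsets for transcript GC content and length. The KI intervals, from the fit without the first number, all include 0, and with offsets the Socs3 interval lies farthest from 0 (-2.60 to -1.14).

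The genes that differed by first number also differed in base composition. In GENCODE vM1, transcripts of Jak1 held 47.6% G and C, of Jak3 60.7%, of Tyk2 57.0% and of Socs3 58.7%, with Stat3 at 52.5%, Stat5b at 52.7% and Stat5a at 55.8%. Socs1, which was lower at number 2 in its unadjusted permutation test, held 63.6%, the most of the 9 genes, and Cish held 56.4%. Over the 7120 tested genes with a protein-coding transcript (94.4% of 7542), the 1424 of lowest GC content had a median log2 difference of 0.70 between number 2 and number 1, and 25.9% of them were called higher and 0.772% lower. Among the 1424 of highest GC content the median was -0.53, with 0.421% called higher and 21.98% lower. When a smooth trend on GC content and length was removed from each library, a step chosen after seeing the data, 1 of the 4 members kept its call. Socs1 and Cish, below the filter, were not in that fit, so the Socs1 difference has no value with this trend removed. Of these 7120 genes 607 were called higher and 551 lower without the offsets, 150 higher and 268 lower with them, and 294 in both. Socs3 stood at -1.87 (SE 0.35; edgeR adjusted p 0.0021). Jak1 moved to 0.43 (adjusted p 0.0597), Jak3 to -0.42 (adjusted p 0.294) and Tyk2 to -0.55 (adjusted p 0.330), each in the same edgeR test. Of the Tfh markers, Cxcr5 and Pdcd1 kept the call with offsets (edgeR adjusted p 0.0111 and 0.00054). Icos, Sh2d1a and Tox2 lost it (edgeR adjusted p 0.855, 0.319 and 0.141). The cytotoxic and Tfh markers, the genes detected and the reads outside genes given above moved with the same number, and their part in these differences was not tested.

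**Figure D5:**
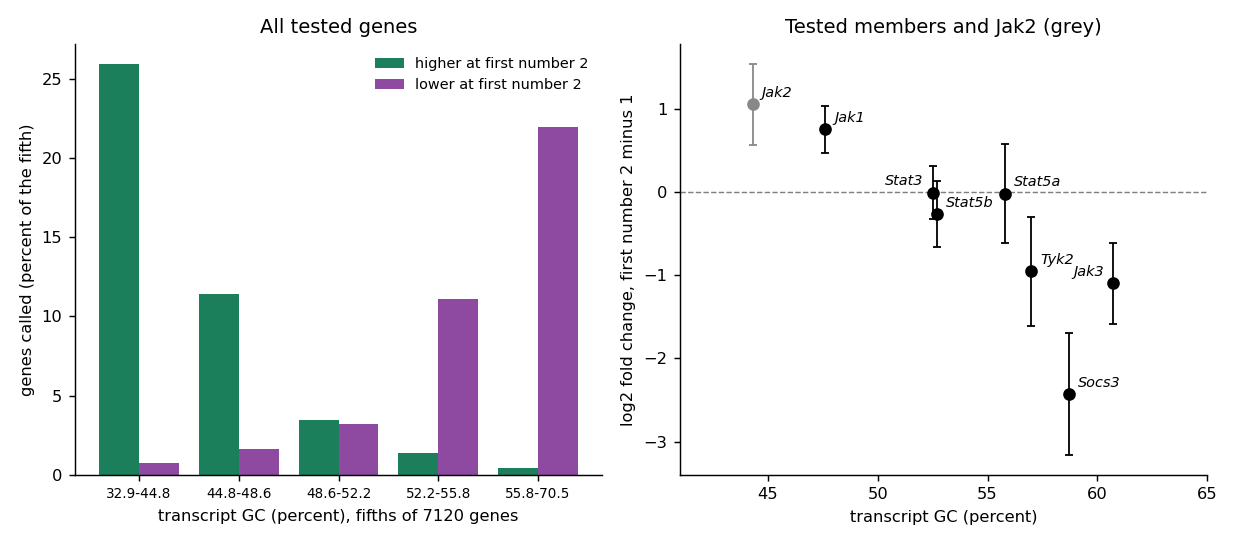
Left, the percentage of tested genes called higher or lower at first number 2 in 5 equal bins of transcript GC content. Right, log2 difference between first numbers against transcript GC content for the 7 tested members and Jak2, with 95% intervals. Calls shift from higher (25.9% in the lowest bin) to lower (21.98% in the highest), and the low-GC Jak2 and Jak1 lie above 0 while the high-GC Tyk2, Jak3 and Socs3 lie below it. Stat5a, at 55.8% GC, lies at -0.02.

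Other genes of the pathway were taken from lists, which held the 10 other JAK, STAT and SOCS genes, 23 receptor chains, 16 cytokines, 11 other negative regulators and 14 genes known to respond to STAT3 or STAT5. In KI against WT 0 genes of any list passed in the edgeR test. At an unadjusted p under 0.05 there were 1 of 8 tested family genes, 2 of 14 receptors, 0 of 2 cytokines, 2 of 11 regulators and 0 of 11 responsive genes, where 5.40% of all tested genes had one. Genes with the smallest p in their lists were as follows. Socs2, a STAT5-induced inhibitor of growth hormone signalling, had a log2 fold change of -2.27 (SE 0.97; edgeR adjusted p 0.917), and the WT mean rested on WT 1-3, at 474 CPM against 5.65 to 40.1 CPM in the other 5. Il7r, the IL-7 receptor, was at -1.21 (SE 0.55) and Il12rb1, an IL-12 receptor chain, at 1.06 (SE 0.49). Pias2 and Pias4, which belong to a family of SUMO ligases that inhibit STATs, were at -1.77 (SE 0.50) and 1.12 (SE 0.40), and their edgeR adjusted p was 0.711 and 0.914. Osm and Il21 were at 1.01 (SE 0.63) and 0.47 (SE 0.79), and Ccnd2 and Bcl2 at 0.28 (SE 0.17) and -0.35 (SE 0.25).

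Between first numbers, 4 of 8 tested family genes passed, against 16.0% of all genes. Jak2, the kinase of the interferon gamma and growth hormone receptors, rose from 67.6 ± 21.8 to 141 ± 29.7 CPM (log2 fold change 1.05, edgeR adjusted p 0.0043), Stat4, the STAT of IL-12, from 180 ± 47.8 to 292 ± 50.8 CPM (0.69, adjusted p 0.0127), and Socs5 from 4.60 ± 4.52 to 23.97 ± 8.16 CPM (2.29, adjusted p 0.0106). Stat6, the STAT of IL-4, fell from 122 ± 11.9 to 62.4 ± 25.2 CPM, or -1.04 on the log2 scale (edgeR adjusted p 0.0049). With GC and length offsets Stat6 and Socs5 kept the call and Jak2 and Stat4 lost it (edgeR adjusted p 0.247 and 0.556). Of 14 tested receptor chains 0 passed in the edgeR test. At an unadjusted p under 0.05 there were 2 of 14, against 2291 of all 7542 tested genes. The smallest p were those of Il12rb1 at -1.13 (SE 0.42) and Il21r at -0.90 (SE 0.40). Both tested cytokines, Il21 at 0.66 (SE 0.77) and Osm at 0.06 (SE 0.64), missed the threshold, also unadjusted.

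Among the 11 regulators 5 passed between first numbers, again beside 16.0% of all genes. Ptprc, the phosphatase CD45, rose by 1.25 (SE 0.15) and Ptpn11, the phosphatase SHP2, by 0.56 (SE 0.17). Ptpn1, Ptpn6 (SHP1) and Usp18, an inhibitor of interferon receptor signalling, had log2 fold changes of -0.82 (SE 0.18), -0.81 (SE 0.15) and -2.17 (SE 0.41). With offsets 4 of these 5 kept the call, and Ptpn1 did not (edgeR adjusted p 0.106). Of the 11 STAT-responsive genes 4 passed, beside the same 16.0%. Mcl1, a survival gene, was higher at number 2 by 0.76 (SE 0.20), and Ccnd3, Batf and Pim2 were at -2.07 (SE 0.20), -1.12 (SE 0.28) and -0.82 (SE 0.26). Only Ccnd3, a D-type cyclin, kept its call among these 4 with offsets (edgeR adjusted p 5.32e-05).

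The tested genes closest in pattern to each inhibitor were found by the mean absolute difference of log2 CPM over the 12 libraries, after centring each gene. For Socs3 these were Dok2, an adaptor that dampens receptor signalling, at 0.32, and Prpf31, a splicing factor, at 0.39, where the mean absolute deviation of Socs3 itself was 1.152. Dok2 went from 119 CPM at number 1 to 28.8 CPM at number 2, and Prpf31 from 33.8 to 6.65 CPM. For Socs1 they were Fkbp2 (0.28) and Hcfc1r1 (0.29), with a deviation of 0.65 for Socs1, and for Cish Csnk2a2 (0.53) and Styx (0.55), with a deviation of 1.05. For Cish and Socs1 the counts were low, and these distances include much counting error.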

How the data were processed

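Per the labels, polyadenylated RNA of 100 to 200 sorted cells was amplified by a method first made for single cells. The submitters' processing notes list CASAVA, TopHat2, Cufflinks, HTSeq, DESeq2 and the build mm9, without versions or roles. The authors deposited raw counts per gene symbol (25793 genes, besides 5 entries of unassigned reads that were left out here) and FPKM values (25819 entries, where 27 repeated names were summed). Between 26.7% and 43.8% of reads aligned to more than 1 place and were not counted.

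Counts were tested in R 4.3.3 with edgeR 4.0.16 (filterByExpr, TMM, glmQLFit in its default form, glmQLFTest; adjusted p under 0.05). KI was compared with WT without a block, and first number 2 with 1 with genotype as covariate. Standard errors were derived from log2 fold changes and F statistics. Genes below the filter had exact permutation tests over 924 splits. Levels of different genes were compared on FPKM, except that the Stat5a share was also taken on counts. Also run were scaling by RLE or by upper quartiles, DESeq2 1.42.0, limma 3.58.1 (voom, and log2 FPKM with a pseudocount of 1 or 0.1), other filters, blocks by title number, subsets, summed libraries and, chosen after seeing the data, offsets for GC content and length. The edgeR test was tested on simulated data.

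The members, gene lists, tests and naming rule were chosen with earlier results of these data known. All 9 members are named, then genes of the lists with an adjusted p under 0.05 or else the 2 with the smallest p in each list, and for each inhibitor the 2 genes closest in pattern; 1 gene this rule names is not reported here. Chi-square divided by its degrees of freedom was 9.01 to 43.3 in the 30 within-genotype pairs of libraries, so none agreed within sampling noise. Gene positions are from GENCODE vM1 on NCBIM37, and all 9 members matched by symbol there and in the RefSeq promoter table.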

Additional observations from a re-analysis of the deposited data

Results flagged for a closer look

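Socs1 stood at 10.99 CPM in KI 1-3, against 5.58 CPM in the next of the 6 KI libraries, a gap of 0.637 of the whole KI range. The value rests on 16 counts. It was the only library that stood out among 18 sets of 6 libraries (9 genes in 2 genotypes), where chance sets apart about 1 in 20.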

How the results depend on the processing

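None of the 7 tested members was called in KI against WT under any alternative run, while the count over all genes, 2, became 11 with DESeq2, 1 with limma-voom, 4 with no filter, 0 on FPKM with either pseudocount, 0 with summed libraries, 1 at first number 2 alone, 4 with a replicate block on the first number, 4 with GC and length offsets plus that block, and 0 to 2 with a library left out. Deviations of WT and KI libraries with both numbers alike correlated at 0.08 to 0.26 (mean 0.16). With first-number means removed that mean was -0.005. Before that step only 2 of 6 WT libraries correlated best with the KI library of the same 2 numbers. Libraries were therefore not paired by the second number. Pairs sharing the first number had a mean correlation of 0.17, against -0.17 for pairs that did not, and the main KI fit leaves the first number out. No member was called with either replicate block, the smallest edgeR adjusted p being 0.519 for Jak1 with the first number. The count by first number, 1208, was 795 on FPKM with a pseudocount of 0.1, 418 with GC and length offsets (on 7120 genes, 1158 of them called without offsets), 381 in WT alone, 359 in KI alone and 751 to 1252 with a library left out (751 without KI 2-2). The 4 members called were 1 with offsets, 2 in WT alone and 1 in KI alone, and 3 to 4 with a library left out; Socs3 was called in all 24 alternatives that tested it, Jak1 in 23 of 25, Jak3 in 22 of 25 and Tyk2 in 12 of 25. The interaction count, 0 genes with 544 at an unadjusted p under 0.05, was 7 with DESeq2. The cause was not tested. No value that changed sign was called on either side. Stat3 by first number became 0.013 with upper-quartile scaling, 0.053 with a mean of at least 50 counts (a filter Socs3 does not pass), 0.073 and 0.075 on FPKM (pseudocounts 1 and 0.1), 0.044 with offsets and 0.019 in WT alone, and ran from -0.070 to 0.045 with a library left out. Stat5a by first number became 0.0027, 0.036, 0.13, 0.16 and 0.33 in the first 5 of these, 0.091 with limma-voom, 0.0083 with the second number as replicate block and 0.056 in KI alone, and ran from -0.19 to 0.23. In KI against WT the values with a library left out ran from 0.0031 to 0.44 for Jak3 (without KI 1-3 and WT 1-2), -0.69 to -0.22 for Tyk2 (without KI 1-2 and WT 1-2), 0.04 to 0.39 for Stat5a (without KI 1-3 and KI 1-2), -0.24 to -0.02 for Stat5b (without KI 1-2 and WT 1-2), 0.02 to 0.13 for Stat3 (without WT 2-2 and WT 2-3) and -0.41 to -0.20 for Jak1 (without KI 2-3 and WT 2-2). Stat5b became 0.037 at first number 1 alone and Socs3 0.10 at first number 2 alone. The Socs1 difference was 0.014 with a pseudocount of 0.5, 0.026 on log2(FPKM + 1) and -0.25 to 0.29 with a library left out, and that of Cish 0.33 to 1.06. The order of levels changed for 2 genes each in WT, at first number 1 and at first number 2. Depth limits Socs1 and Cish, with means of 6.92 and 5.08 counts per library.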
